A study of Mus musculus with 22 samples.

Results

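JARID2 and SUZ12, both subunits of the Polycomb repressive complex PRC2, were compared by CUT&RUN in mouse neural progenitor cells (NPC). In CUT&RUN an antibody directs a nuclease to chromatin, and the DNA it releases is sequenced. The comparison used the 2 JARID2 and the 2 SUZ12 libraries of NPC, 4 of the 22 libraries of the series, chosen by antibody and cell type alone. The single NPC library made with IgG, an antibody without a chromatin target, gave the background. The NPC came from embryonic stem cells (ESC) of the C57BL/6 strain, which the labels call untagged and Tir1 and untreated. That background is shared by every group used here. The cells were seeded at 15000 cells per mL in N2B27 medium, held for 72 h in bFGF (10 ng/mL) and for a further 48 h in SAG (500 nM), an agonist of Hedgehog signalling. ESC libraries of the same antibodies, from cells kept in LIF with inhibitors of GSK3 and MEK, served where the comparison is set beside the undifferentiated state. The SUZ12 antibody was commercial (Cell Signaling) and the JARID2 antibody came from the Bonasio laboratory. Because each subunit has its own antibody, a lower JARID2 level and a lower yield of its antibody cannot be told apart. In such bulk libraries, fewer cells carrying a protein and less protein per cell cannot be told apart either.

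PRC2 methylates histone H3 at lysine 27, and the trimethylated form, H3K27me3, marks developmental genes held silent in a given cell type. SUZ12 is a core subunit present in every form of the complex. JARID2 is an accessory subunit, without demethylase activity of its own, that defines with AEBP2 the form called PRC2.2. The other form, PRC2.1, carries a Polycomb-like protein such as MTF2 in its place. JARID2 helps bring PRC2 to chromatin in stem cells, and the comparison asks where the PRC2.2 subunit is found relative to the core once the cells have become neural progenitors.

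Values were whole-number counts of reads in 24467 windows of 5000 bp, each centred on the transcription start site (TSS) of 1 gene. The NPC libraries held 465885 and 448667 counts for SUZ12, 492529 and 339591 for JARID2 and 667898 for IgG. Levels are given as CPM, counts per 1000000 counts of the library, and 3 counts correspond to between 4.49 (IgG) and 8.83 CPM (JARID2 library 2). Intervals and such floors cover counting error only. H3K4me3, a mark of active and poised promoters, was used to check the cell type label. Its summed level over 6 neural progenitor markers (Sox1, Pax6, Nes, Fabp7, Meis1 and Pou3f2) was 232 and 217 CPM in the ESC libraries and 932 and 961 CPM in the NPC libraries, and all 6 were higher in both NPC libraries. Over 6 naive pluripotency markers, Nanog and Pou5f1 among them, it went from 1026 and 1085 to 164 and 161 CPM, and all 6 were lower. None of the marker genes of mesoderm, endoderm or surface ectoderm counted here was at 0 in NPC, with summed levels of 509 to 520, 657 to 664 and 323 to 324 CPM against 703 to 808, 654 to 692 and 589 to 632 CPM in ESC.

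The 2 JARID2 libraries differed from each other by no more than the sampling noise over all windows (chi-square per degree of freedom 1.0001, p = 0.495), while the SUZ12 pair did differ (1.0259, p = 0.00276). They were therefore summed to 1 sample in the test over 8 groups, and both values are shown throughout. With 1 JARID2 sample in NPC, the spread in that test comes from the other groups. A second fit of the NPC libraries alone, called the NPC fit below, kept the JARID2 libraries apart. It thus takes their spread as that of 2 samples. Over the 1056 windows of PRC2 targets (described with the next results) that were dense enough for the test, the JARID2 pair did differ, at 1.0833 per degree of freedom (chi-square p = 0.0302).

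JARID2 counts were spread more evenly over the windows than SUZ12 counts and stood closer to IgG. The fullest 1% of windows held 4.94% and 5.05% of SUZ12 counts, 2.63% and 2.57% of JARID2 counts and 2.22% of IgG counts. To compare both at Polycomb genes, 1067 PRC2 target windows were taken as those at least 2-fold over IgG for SUZ12 in ESC and for H3K27me3 in NPC, a choice that used neither of the NPC libraries compared. These windows held 10.2% of the counts of each SUZ12 library, with exact (Clopper-Pearson) 95% intervals of 10.1% to 10.3%. They held 6.24% (6.17% to 6.30%) of JARID2 library 1 and 5.77% (5.70% to 5.85%) of JARID2 library 2, against 4.61% (4.56% to 4.66%) of the IgG library. All 4 libraries lay above IgG, and both JARID2 libraries lay below both SUZ12 libraries.

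Scaled to 15077 background windows, in which H3K27me3 was below IgG in both cell types, PRC2 targets were 2.41 and 2.40-fold over IgG for SUZ12 and 1.39 and 1.29-fold for JARID2. The JARID2 excess over IgG was thus 27.9% and 20.5% of the mean SUZ12 excess in the 2 libraries. The NPC IgG library entered both the choice of targets and these folds, and its mean was 43.2 CPM in targets and 41.8 CPM in background windows. At single targets the separation was partial. Both JARID2 libraries exceeded IgG at 650 of the 1067 targets (60.9%), compared with 29.0% of all windows, and both SUZ12 libraries did so at 882 (82.7%), compared with 25.9%. Both JARID2 libraries lay below both SUZ12 libraries at 677 targets (63.5%), beside 15.4% of all windows, and above them at 39, beside 20.7% of all windows. CPM shares sum to the same total in each library, so a library with less signal in targets has more elsewhere.

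**Figure D1:**
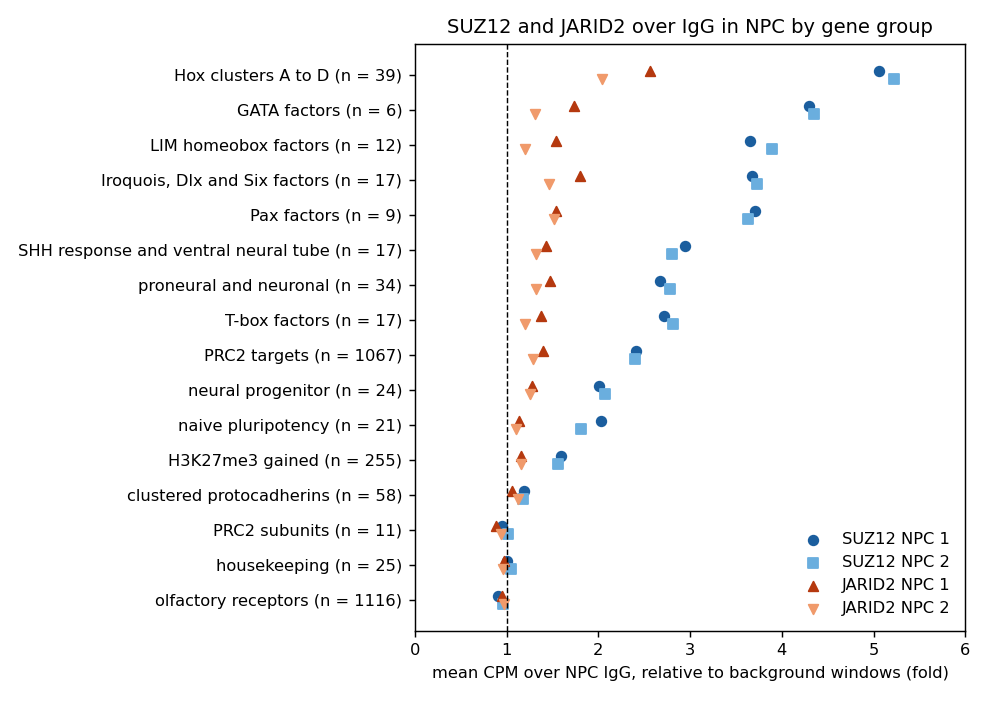
Mean CPM over the NPC IgG library, divided by the same ratio in background windows, for gene groups in each of the 4 libraries; points are single libraries and the dashed line marks IgG. Hox clusters stand highest for both subunits, at 5.06 and 5.22-fold for SUZ12 and 2.56 and 2.04-fold for JARID2, and housekeeping genes lie near 1.

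The level of both subunits in NPC parted from IgG mainly in the windows with the most SUZ12 in ESC. In the decile of windows with the highest SUZ12 over IgG in ESC, the NPC folds were 1.73 and 1.72 for SUZ12 and 1.21 and 1.14 for JARID2. In the next decile they were 1.12 and 1.11 for SUZ12 and 1.04 and 1.03 for JARID2, and in the lower deciles all 4 libraries lay between 0.955 and 1.06. Among targets the contrast grew with H3K27me3. In the quartile of targets with the most H3K27me3 in NPC, SUZ12 was 4.07 and 4.09-fold and JARID2 1.81 and 1.55-fold over IgG. In the quartile with the least, SUZ12 was 1.45 and 1.49-fold and JARID2 1.22 and 1.19-fold. The quartiles by H3K4me3 in NPC were closer together, at 2.85 and 2.82-fold (SUZ12) and 1.56 and 1.40-fold (JARID2) in the lowest and 2.15 and 2.21-fold and 1.35 and 1.26-fold in the highest. Promoter CpG count, from the RefSeq promoters that matched 656 targets, made less difference, with SUZ12 at 2.50 and 2.47-fold in the lowest tertile and 2.14 in both libraries in the highest, and JARID2 at 1.45 and 1.33-fold and 1.30 and 1.19-fold.

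**Figure D2:**
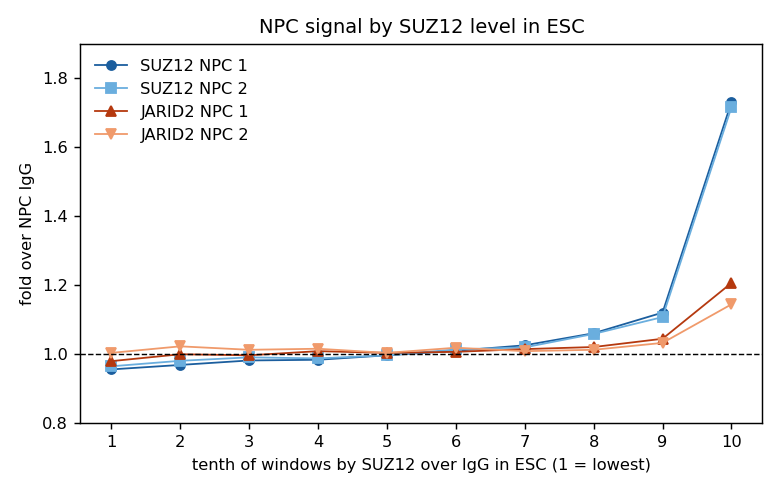
Fold over the NPC IgG library, relative to background windows, in deciles of all windows ranked by SUZ12 over IgG in ESC; each line is 1 library and the dashed line marks IgG. The libraries stay near 1 through the lower deciles and part in the highest, where SUZ12 reaches 1.73 and 1.72 and JARID2 1.21 and 1.14.

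Across the 1067 targets, log2 CPM with a pseudocount of 5 CPM gave Pearson's r of 0.92 between the SUZ12 libraries and 0.721 between the JARID2 libraries. JARID2 library 1 correlated with the SUZ12 libraries at 0.793 and 0.794, and library 2 at 0.685 and 0.672. Correlations with IgG were 0.586 and 0.597 for JARID2 and 0.483 and 0.478 for SUZ12. These describe windows of the same libraries, which share mappability and base composition and, in part, reads.

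The test of single TSSs found 5 where JARID2 was below SUZ12 in NPC and none where it was above. It was edgeR's quasi-likelihood test over the SUZ12, JARID2, MTF2 and IgG libraries of both cell types, with calls at a Benjamini-Hochberg adjusted p below 0.05. The 5 were 0.0213% of 23521 TSSs tested. At an unadjusted p below 0.05 there were 1220 TSSs, 578 of them with higher JARID2. That is about the number such a threshold passes when no TSS differs. DESeq2 called none and had 274 at an unadjusted p below 0.05. Among the 5 called by edgeR were the TSSs of Nfib, Zic5, BB283400 and Mirc35hg. The windows of the last pair overlap and share reads, so the calls come from 4 separate regions. At all 5, H3K27me3 was gained between ESC and NPC and SUZ12 in ESC was less than 2-fold over IgG, so none was a PRC2 target as defined above.

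The calls depended on single libraries. None was left without SUZ12 library 2 or JARID2 library 1, 2 were left without JARID2 library 2 and 3 without SUZ12 library 1. Over these 4 fits the log2 difference ran from -2.03 to -1.79 at Nfib, which was called in 2 of them, and from -1.87 to -1.70 at Zic5, which was called in 1. When the fit held only the NPC libraries of SUZ12, JARID2 and IgG, 356 TSSs were called with JARID2 lower (1.55% of 23019) and 15 with JARID2 higher (0.0652%), and all 5 above were among the 356. The common biological coefficient of variation was 0.130 with the MTF2 and ESC libraries in the fit and 0.0378 in the NPC fit. The NPC fit had 2 residual degrees of freedom. Its p-values, here and below, thus reflect mostly counting error and do not measure how far separate cultures vary. The 2 MTF2 libraries of NPC stood apart from each other, with 7.28% and 13.8% of their counts in PRC2 targets and a chi-square of 2.7559 per degree of freedom there (p = 6.46e-173). Without the MTF2 libraries, an alternative added after seeing the data, 279 TSSs were lower and 12 higher. With the JARID2 libraries summed in the NPC fit, also added after seeing the data, 359 were lower and 11 higher. Of the 356, 319 were PRC2 targets (89.6%), beside 4.36% of all windows. At 346 (97.2%) H3K27me3 was at least 2-fold over IgG in NPC, beside 8.79% of all windows. None of the 15 was a target.

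The promoters of 3 of the genes called in the test over 8 groups are shown, those named above with a RefSeq promoter within 50 bp of the window centre, which leaves out Nfib. They are taken from RefSeq on GRCm38.p6, run 5′ to 3′ along the gene from 250 bases before its start to 50 after, and have every CG in capitals, a pair that reads the same on both strands. Zic5 lies at chr14:122465609-122465908 (minus strand), BB283400 at chr6:30176373-30176672 (plus strand) and Mirc35hg at chr6:30174076-30174375 (minus strand).
Zic5: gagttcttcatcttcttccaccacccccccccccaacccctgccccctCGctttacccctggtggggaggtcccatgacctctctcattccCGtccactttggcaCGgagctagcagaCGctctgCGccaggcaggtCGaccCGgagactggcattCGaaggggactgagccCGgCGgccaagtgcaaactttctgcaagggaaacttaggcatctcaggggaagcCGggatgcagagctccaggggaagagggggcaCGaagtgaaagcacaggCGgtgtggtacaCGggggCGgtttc
BB283400: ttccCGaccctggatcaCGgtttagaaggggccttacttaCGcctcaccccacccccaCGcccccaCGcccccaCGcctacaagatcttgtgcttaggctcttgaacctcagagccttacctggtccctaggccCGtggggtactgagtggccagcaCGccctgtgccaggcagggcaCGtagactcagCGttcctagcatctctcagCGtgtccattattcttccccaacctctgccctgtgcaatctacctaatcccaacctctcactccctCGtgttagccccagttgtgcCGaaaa
Mirc35hg: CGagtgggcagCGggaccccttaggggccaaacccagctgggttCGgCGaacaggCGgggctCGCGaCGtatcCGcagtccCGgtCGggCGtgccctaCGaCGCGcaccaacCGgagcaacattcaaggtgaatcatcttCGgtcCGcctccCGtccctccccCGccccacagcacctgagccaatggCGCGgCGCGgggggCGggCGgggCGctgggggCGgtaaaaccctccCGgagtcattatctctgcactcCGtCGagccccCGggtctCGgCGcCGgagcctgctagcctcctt
The Zic5 promoter holds 15 CG pairs, a number that 34.6% of 32851 RefSeq promoters of this length reach. BB283400 holds 13, reached by 37.9% of promoters, and Mirc35hg 35, reached by 6.95%.

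Zic5 encodes a zinc finger transcription factor of the dorsal neural tube and neural crest. At Zic5, SUZ12 was 163 and 169 CPM in NPC, JARID2 52.8 and 47.1 CPM and IgG 35.9 CPM. Both JARID2 libraries lay just above IgG and far below SUZ12, and the log2 difference was -1.77 ± 0.36 (SE; edgeR adjusted p = 0.00695). Zic5 was also the only member of the neural crest and dorsal neural tube list (1 of 17) to be called.

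Nfib encodes a nuclear factor I transcription factor that acts in neuronal and glial differentiation. Its window (mm10 chr4:82503280-82508279) had SUZ12 at 96.6 and 114 CPM, JARID2 at 30.5 and 26.5 CPM and IgG at 38.9 CPM. Here both JARID2 libraries lay below IgG, and the difference was -1.91 ± 0.34 (edgeR adjusted p = 0.000401). Mirc35hg is the host gene of a microRNA cluster, and its window overlaps the windows of Mir96 and Mir183. It had SUZ12 at 189 and 227 CPM, JARID2 at 42.6 and 56.0 CPM and IgG at 58.4 CPM, a log2 difference of -2.16 ± 0.44 (edgeR adjusted p = 0.00695). The overlapping window of BB283400 had 172 and 194, 46.7 and 58.9 and 38.9 CPM in the same order, with -1.87 ± 0.41 (edgeR adjusted p = 0.0190). At each of the 5 TSSs SUZ12 was called above IgG and JARID2 was not.

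**Figure D3:**
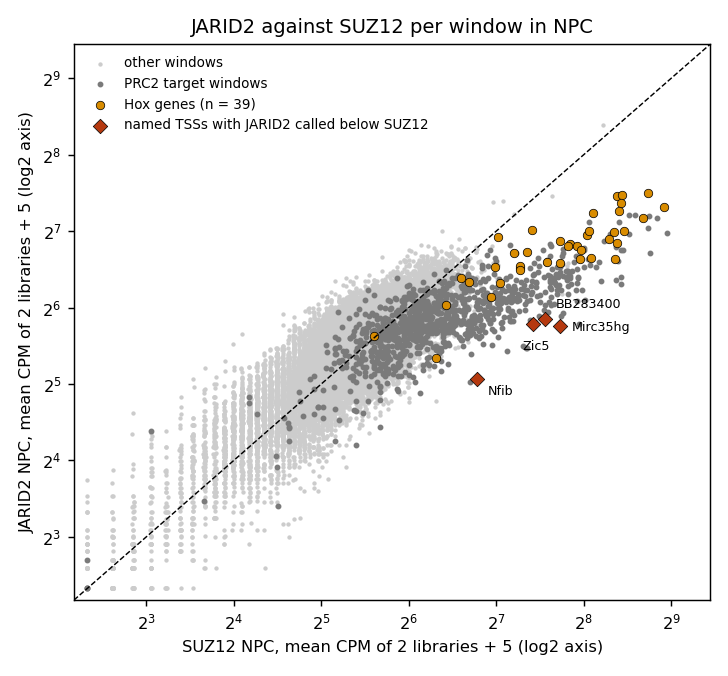
Mean CPM of the 2 JARID2 libraries against that of the 2 SUZ12 libraries for each window in NPC, with 5 added and both axes on a log2 scale; the dashed line marks equal values. PRC2 targets and the 39 Hox genes bend below the line as SUZ12 grows, and the 4 called TSSs named in the plot lie further below it than most windows of like SUZ12 level.

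Being above IgG was called at an adjusted p below 0.05 and a log2 fold of at least 1. SUZ12 passed at 14 TSSs (0.0595%), 5 of them targets and 9 with gained H3K27me3, beside 1067 targets and 255 gained windows among all 24467. JARID2 passed at none by edgeR, with 370 TSSs above IgG at an unadjusted p below 0.05, and at none by DESeq2, so no TSS was called for both. The 370 are fewer than such a threshold passes in 1 direction when no TSS differs. In the NPC fit SUZ12 passed at 459 TSSs (1.99%), JARID2 at 29 (0.126%) and both at 27 (0.117%). With the JARID2 libraries summed there, JARID2 passed at 59 and both at 57, and without the MTF2 libraries in the larger fit at 15 and 14, so the 27 described next are those of 1 setting. The single IgG library is assumed there to vary like the other groups. All 27 were PRC2 targets, beside 4.36% of all windows, and lay in 22 separate regions. JARID2 was called below SUZ12 at 24 of them. The 2 called for JARID2 without SUZ12 were Vcan, which encodes a matrix proteoglycan, and Dynlt1b. At Vcan, JARID2 was 77.2 and 58.9 CPM, SUZ12 38.6 and 37.9 CPM and IgG 19.5 CPM, while JARID2 minus SUZ12 was 0.81 ± 0.30 and was not called (edgeR adjusted p = 0.279).

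Among the 27 TSSs were 11 Hox genes, Evx2 beside the HoxD cluster, the spinal cord and retinal factor Barhl2, the dorsal interneuron and muscle factor Lbx1, the forebrain factors Otx1, Otp and Sp9, the midbrain factor En1, and Sim2, Tfap2a and Gata6. Of the 27 windows, 25 (92.6%) were higher in JARID2 library 1 than in library 2, beside 57.2% of targets and 49.8% of all windows. The promoters of 3 genes are printed, as those with the highest JARID2 over IgG among protein-coding genes with a RefSeq promoter at the centre of the window: Hoxa10 at chr6:52234890-52235189 (minus strand), Evx2 at chr2:74659508-74659807 (minus strand) and Barhl2 at chr5:106458117-106458416 (minus strand), again on GRCm38.p6 with CG in capitals.
Hoxa10: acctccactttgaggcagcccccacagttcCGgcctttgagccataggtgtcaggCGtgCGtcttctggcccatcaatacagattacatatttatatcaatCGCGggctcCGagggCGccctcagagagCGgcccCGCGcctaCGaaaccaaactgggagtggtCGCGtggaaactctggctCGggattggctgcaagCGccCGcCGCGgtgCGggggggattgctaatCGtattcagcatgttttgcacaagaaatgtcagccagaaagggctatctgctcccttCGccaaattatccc
Evx2: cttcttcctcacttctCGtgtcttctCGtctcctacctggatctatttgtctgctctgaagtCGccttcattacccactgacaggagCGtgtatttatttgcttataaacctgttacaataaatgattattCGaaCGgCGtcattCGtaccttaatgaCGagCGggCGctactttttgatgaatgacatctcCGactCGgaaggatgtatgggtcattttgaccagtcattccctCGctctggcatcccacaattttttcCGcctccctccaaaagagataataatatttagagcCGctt
Barhl2: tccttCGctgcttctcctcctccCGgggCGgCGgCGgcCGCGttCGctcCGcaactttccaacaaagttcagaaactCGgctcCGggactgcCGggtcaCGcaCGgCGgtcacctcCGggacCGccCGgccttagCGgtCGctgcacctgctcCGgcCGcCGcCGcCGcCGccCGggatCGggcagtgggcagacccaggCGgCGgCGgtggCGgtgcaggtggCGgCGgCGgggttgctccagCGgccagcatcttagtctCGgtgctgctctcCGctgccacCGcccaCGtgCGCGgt
They hold 21, 16 and 42 CG pairs, and 24.8%, 33.0% and 3.03% of RefSeq promoters hold as many. The median was 22 in the 656 targets with a promoter, 20 in the 14 TSSs above IgG for both subunits, 15 in background windows and 13 in all 16940 matched windows, so the CG content of the JARID2 windows lay within that of targets in general.

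At Hoxa10, a posterior patterning gene, SUZ12 was 335 and 321 CPM, JARID2 185 and 156 CPM and IgG 43.4 CPM in NPC. Both JARID2 libraries were well above IgG and below SUZ12. JARID2 over IgG was 2.01 ± 0.34 on the log2 scale (edgeR adjusted p = 9.42e-05 in the NPC fit), the largest of the 27. At Evx2 SUZ12 was 462 and 446 CPM, JARID2 175 and 103 CPM and IgG 40.4 CPM. At Barhl2 SUZ12 was 198 and 225 CPM, JARID2 116 and 64.8 CPM and IgG 26.95 CPM. In both, JARID2 library 2 was lower than library 1 and still above IgG.

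Hox genes, which set position along the body axis and are silent in cells of anterior character, held the most JARID2 of the groups examined. Over the 39 genes of clusters A to D, of which 37 were targets, SUZ12 was 5.06 and 5.22-fold and JARID2 2.56 and 2.04-fold over IgG. The JARID2 excess was 37.7% and 25.1% of that of SUZ12. These values rest on 2305 and 1268 JARID2 counts and 4081 and 4061 SUZ12 counts, and 24 of the 39 windows overlap another window. Both JARID2 libraries exceeded IgG at 37 of 39 windows, and at 37 of 39 both JARID2 libraries lay below both SUZ12 libraries. The median log2 difference was -1.06 in the 8-group fit and -1.07 in the NPC fit, beside -0.0008 and -0.0011 over all TSSs. In the NPC fit JARID2 was lower at 28 of 39 and above IgG at 11, beside 1.55% and 0.126% of all TSSs tested. In the 8-group fit none was called for either.

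The clusters differed little in SUZ12 and more in the agreement of the JARID2 libraries. SUZ12 was 5.04 and 5.35-fold in HoxA, 4.60 and 4.87-fold in HoxB, 5.71 and 6.02-fold in HoxC and 5.21 and 4.82-fold in HoxD. JARID2 was 2.79 and 2.21-fold in HoxA, 2.25 and 1.96-fold in HoxB, 2.75 and 2.09-fold in HoxC and 2.55 and 1.86-fold in HoxD. The gap between the JARID2 libraries of 1 cluster was as wide as that between clusters, so no order of the clusters is read from it. Hoxb9 had the highest SUZ12 of the 39, at 472 and 486 CPM, with JARID2 at 175 and 135 CPM (IgG 67.4 CPM) and a log2 difference of -1.65 ± 0.21 in the NPC fit (edgeR adjusted p = 7.64e-12). Both subunits were lower at Hoxd4, nearer the anterior end of its cluster. There SUZ12 was 47.2 and 40.1 CPM, JARID2 50.8 and 38.3 CPM and IgG 37.4 CPM, with no separation of the libraries.

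Other patterning factors showed the same order of the 2 subunits with less JARID2. GATA factors, regulators of endoderm and blood, were 4.3 and 4.35-fold over IgG for SUZ12 and 1.73 and 1.31-fold for JARID2. LIM homeobox factors were 3.66 and 3.898-fold and 1.54 and 1.20-fold, and Pax factors 3.71 and 3.64-fold and 1.54 and 1.52-fold. In the NPC fit JARID2 was called lower at 4 of 6 GATA, 9 of 12 LIM homeobox, 6 of 9 Pax, 17 of 28 forkhead, 8 of 17 T-box and 13 of 17 Iroquois, Dlx and sine oculis homeobox genes, and higher at none, beside 1.55% of all TSSs tested. The 8-group fit called none in these 6 lists. The median log2 differences ran from -0.80 (T-box) to -1.40 (LIM homeobox). In these lists JARID2 was above IgG at 1, Gata6, where it was 112 and 94.2 CPM against 262 and 241 CPM for SUZ12 and 28.5 CPM for IgG.

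Pax2, a factor of the midbrain-hindbrain boundary, had the highest SUZ12 of the Pax list and was named after its value was seen. SUZ12 was 468 and 515 CPM, JARID2 148 and 94.2 CPM and IgG 50.9 CPM, a log2 difference of -2.02 ± 0.22 in the NPC fit (edgeR adjusted p = 1.38e-16) and of -2.01 in the 8-group fit, which did not call it (adjusted p = 0.963). Lhx1, a LIM homeobox gene of motor and inter-neurons, had SUZ12 at 303 and 377 CPM and JARID2 at 97.5 and 61.8 CPM with IgG at 44.9 CPM. At Gata4 JARID2 was 114 and 41.2 CPM against 228 and 212 CPM for SUZ12 and 35.9 CPM for IgG. JARID2 library 2 lay next to IgG there and library 1 between IgG and SUZ12.

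**Figure D4:**
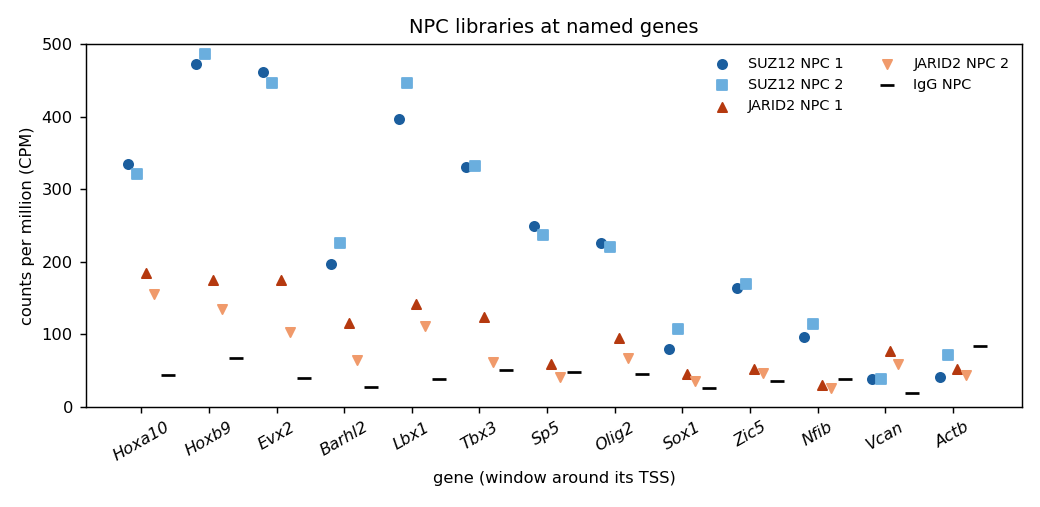
CPM in each NPC library at 13 named genes, with the IgG library as a bar. SUZ12 exceeds JARID2 in every library at the first 11 genes, from Hoxa10 to Nfib, JARID2 exceeds SUZ12 at Vcan, and the libraries mix at Actb.

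Neural genes held both states. Over 24 neural progenitor genes SUZ12 was 2.01 and 2.07-fold and JARID2 1.28 and 1.25-fold over IgG. In the NPC fit 5 of 23 were called lower for JARID2, beside 1.55% of all TSSs tested. The list on the SHH response and ventral neural tube, the fate that SAG favours, stood at 2.95 and 2.80-fold and 1.43 and 1.32-fold, with 7 of 17 lower. Proneural and neuronal genes stood at 2.68 and 2.78-fold and 1.48 and 1.32-fold, with 13 of 34 lower. JARID2 was above IgG at 2 of them, beside 0.126% of all TSSs tested. At Sox1, an early neural factor, SUZ12 was 79.4 and 107 CPM, JARID2 44.7 and 35.3 CPM and IgG 25.5 CPM, a log2 difference of -1.23 ± 0.28 in the NPC fit (edgeR adjusted p = 0.00145). At Olig2, a motor neuron and oligodendrocyte factor, SUZ12 was 225 and 221 CPM, JARID2 95.4 and 67.7 CPM and IgG 44.9 CPM, and the difference was -1.46 ± 0.23 (edgeR adjusted p = 6.57e-08). The 8-group fit called neither (edgeR adjusted p = 0.993 and 0.953) and none of these 3 lists. Pax6 (94.4 and 66.9 CPM for SUZ12, 38.6 and 67.7 CPM for JARID2) and Nkx2-2 (105 and 91.4 CPM, 69.0 and 70.7 CPM) were not called, and at Pax6 the libraries of the 2 subunits overlapped. Nkx2-1, a ventral forebrain and endoderm factor, had SUZ12 at 406 and 450 CPM and JARID2 at 144 and 56.0 CPM with IgG at 43.4 CPM.

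Genes that gained H3K27me3 on differentiation had less of both subunits than PRC2 targets. At 255 such windows SUZ12 was 1.59 and 1.56-fold and JARID2 1.16-fold over IgG in both libraries, so that the JARID2 excess was 27.2% and 27.3% of that of SUZ12. In ESC the same windows stood at 1.55 and 1.48-fold for SUZ12 and 1.01 and 1.02-fold for JARID2. These windows were chosen by H3K27me3 against the IgG libraries that also divide the folds. That choice favours low folds in ESC and high folds in NPC. In the NPC fit JARID2 was lower at 23 of 250 and above IgG at none, and SUZ12 was above IgG at 29. Over all TSSs tested these shares were 1.55%, 0.126% and 1.99%. Naive pluripotency genes were 2.03 and 1.81-fold for SUZ12 and 1.14 and 1.10-fold for JARID2, and 3 of 21 were called lower. Among them was Tbx3, which also belongs to the T-box list and is a PRC2 target, with SUZ12 at 331 and 332 CPM, JARID2 at 124 and 61.8 CPM and IgG at 50.9 CPM. At Klf4 (101 and 62.4 CPM for SUZ12, 38.6 and 53.0 for JARID2, 28.5 for IgG) and Fgf4 (98.7 and 89.2 CPM, 54.8 and 53.0 CPM, 40.4 CPM) both JARID2 libraries lay between IgG and SUZ12 and the difference was not called. At Nanog and Pou5f1 both JARID2 libraries lay below IgG and the difference was not called.

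Groups of other lineages also had SUZ12 above JARID2. The calls that follow are from the NPC fit, in which JARID2 was lower at 1.55% of all TSSs tested. In the 8-group fit Zic5 was the only one called in these lists. For mesoderm, muscle and blood, SUZ12 was 2.05 and 1.93-fold and JARID2 1.26 and 1.24-fold, with 9 of 27 lower. Endoderm stood at 3.39 and 3.21-fold and 1.65 and 1.34-fold (9 of 19), surface ectoderm and trophectoderm at 2.58 and 2.64-fold and 1.28 and 1.26-fold (6 of 16), and neural crest and dorsal neural tube at 3.37 and 3.26-fold and 1.59 and 1.39-fold (10 of 17). WNT, BMP and FGF ligands were lower, at 1.72 and 1.68-fold and 1.14 and 1.18-fold (7 of 40), as were cell cycle inhibitors, at 1.51 and 1.75-fold and 1.08 and 1.12-fold (2 of 8). PRC1 subunits were at 1.51 and 1.67-fold and 1.12-fold in both JARID2 libraries (3 of 21), led by the target Cbx8 with SUZ12 at 328 and 395 CPM, JARID2 at 102 and 138 CPM and IgG at 80.8 CPM. Housekeeping genes, PRC2 subunit genes and olfactory receptors lay between 0.889 and 1.05-fold in all 4 libraries, and none of their TSSs was called. Clustered protocadherins lay at 1.20 and 1.18-fold for SUZ12 and 1.06 and 1.12-fold for JARID2, with none of 58 called.

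JARID2 was called above SUZ12 at 15 TSSs in the NPC fit, in 15 separate regions. None had H3K27me3 at least 2-fold over IgG, both SUZ12 libraries lay below IgG at all 15, and JARID2 over IgG ran from -0.04 to 0.80 on the log2 scale, none of it called. At Alkbh8, which encodes a tRNA-modifying enzyme, SUZ12 was 10.7 and 13.4 CPM, JARID2 46.7 and 44.2 CPM and IgG 34.4 CPM. At Tcf25 SUZ12 was 25.8 and 35.7 CPM, JARID2 67.0 and 85.4 CPM and IgG 53.9 CPM. Both JARID2 libraries exceeded IgG at 13 of the 15 (86.7%), beside 29.0% of all windows. The 15 were chosen for JARID2 above SUZ12 in these same libraries. High JARID2 and low SUZ12 there follow in part from that choice, and nothing is read from either share. The median promoter CG count of the 13 with a RefSeq promoter was 5.

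The direction of these differences depends on what is taken as equal between the antibodies. With scaling factors taken from PRC2 targets, which sets JARID2 and SUZ12 equal over targets as a whole, the median of all TSSs moved by 0.60 (log2), and 47 TSSs were lower for JARID2 (0.200%) and 3 higher (0.0128%). Of the 47, 46 were targets, beside 4.36% of all windows. Of the TSSs named from the 8-group test, Mirc35hg was still called, with a log2 difference of -1.56. Zic5 (-1.17), Nfib (-1.31) and BB283400 (-1.27) were no longer called on that scale. The medians of the Hox (-0.46), LIM homeobox (-0.80), GATA (-0.78), Pax (-0.48) and T-box lists (-0.21) stayed negative on that scale, and those of neural progenitor (0.26) and naive pluripotency genes (0.10) and of gained windows (0.31) turned positive, all beside 0.60 for all TSSs. In the NPC libraries alone that scaling called 160 lower and 5369 higher.

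Beside ESC, the NPC libraries of both antibodies held less signal in targets. The same 1067 windows held 22.2% and 19.6% of SUZ12 counts and 8.46% and 8.74% of JARID2 counts in ESC, with 4.52% of the ESC IgG counts. These targets were chosen for high SUZ12 in these ESC libraries, which favours a high SUZ12 level and a low JARID2 share in ESC, so the values below are a description. The folds over IgG were 7.13 and 5.89 for SUZ12 and 2.06 and 2.14 for JARID2, so the JARID2 excess was 19.2% and 20.7% of that of SUZ12, compared with 27.9% and 20.5% in NPC. NPC library 1 lay above both ESC values and library 2 between them, and this difference was not tested. Over Hox genes JARID2 was 4.36 and 4.59-fold in ESC and SUZ12 10.96 and 8.75-fold, a JARID2 share of 38.0% and 40.6%, which the NPC library 1 (37.7%) approached and library 2 (25.1%) did not. In gained windows the share was 1.66% and 3.72% in ESC and 27.2% and 27.3% in NPC. The choice of gained windows used the same IgG libraries, which favours a difference in this direction. These shares are therefore a description too.

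**Figure D5:**
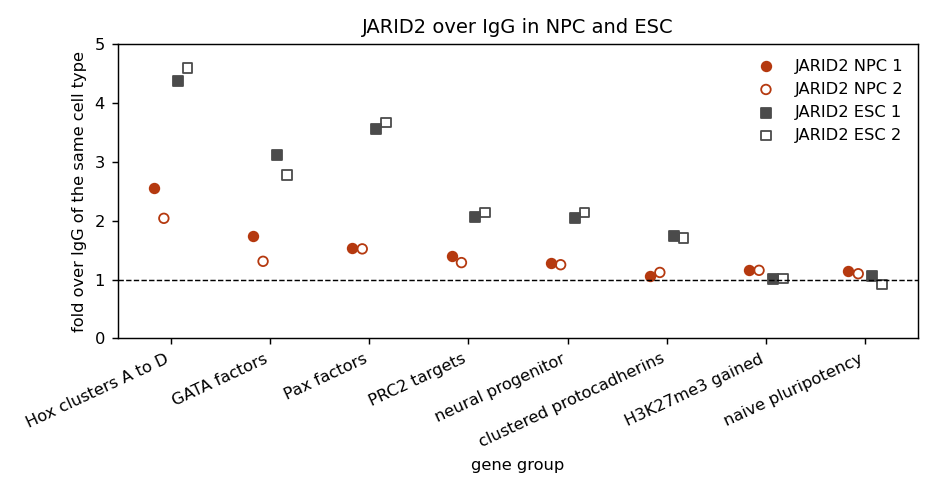
JARID2 over the IgG library of the same cell type, relative to background windows, by gene group; filled and open symbols are libraries 1 and 2 and the dashed line marks IgG. ESC libraries stand above NPC libraries in Hox, GATA and Pax genes, targets, neural progenitor genes and protocadherins. Both NPC libraries stand above the ESC libraries in windows that gained H3K27me3, which were chosen with the same IgG libraries. They also do so in naive pluripotency genes, at 1.14 and 1.10-fold in NPC against 1.06 and 0.915-fold in ESC.

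The same test in ESC called JARID2 below SUZ12 at 2973 TSSs (12.6%), 922 of 1061 tested targets among them, and above it at 634 (2.70%). The choice of targets used the same ESC SUZ12 libraries, and nothing is read from that count. The change in JARID2 minus SUZ12 from ESC to NPC was tested as an interaction and called at 227 TSSs. It was positive at 208 (0.884%) and negative at 19 (0.0808%). At the 208, the median difference between the subunits was -1.84 in ESC and 0.25 in NPC, with a median SUZ12 change of -1.58 and a median JARID2 change of 0.50. Of the 208, 47 were targets (22.6%), beside 4.36% of all windows. SUZ12 was at least 2-fold over IgG in ESC at 143 of the 208, beside 2047 of all 24467 windows. The interaction contains the SUZ12 level in ESC, by which the targets were also chosen. High shares of both kinds follow in part from that, and nothing is read from either. At Epha7, an ephrin receptor of the developing nervous system, SUZ12 went from 182 and 165 CPM in ESC to 34.3 and 44.6 CPM in NPC, while JARID2 was 17.6 and 16.6 CPM and then 32.5 and 29.4 CPM. The IgG libraries held 36.9 and 32.9 CPM there, so JARID2 was not above IgG in either cell type. No TSS of the interaction was called without JARID2 ESC library 2, and between 15 and 172 were without each of the other SUZ12 or JARID2 libraries of either cell type.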

How the data were processed

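The authors deposited 1 table of raw counts per TSS window for 22 libraries, with no normalization. How reads were counted and whether duplicates were removed is not given in the sources. Per the submitters' processing notes, Bowtie2 2.3.4.3, Picard 2.19 and the mm10 build were used. Drosophila DNA was added to the samples per the labels' protocols, but spike-in counts were not analysed here, and a shift shared by all windows of a library goes unseen. The series states 2 biological replicates.

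Of the windows, 5370 overlap another and 66 are identical to another, so neighbouring genes can share reads. Gene symbols turned into dates (27) were restored, and 24280 transcripts were found in RefSeq. Tests used edgeR 4.0.16 (R 4.3.3), quasi-likelihood with TMM scaling and a minimum count of 10 (filterByExpr), over SUZ12, JARID2, MTF2 and IgG in both cell types. The JARID2 NPC libraries were summed to 1 sample because a chi-square test found no difference beyond noise, and were kept apart in the fit of NPC libraries alone. The prior degrees of freedom were infinite, so the spread of a TSS follows the trend over all TSSs. Ratios to IgG that define targets used a prior count of 2, and promoters were matched within 50 bp of the window centre.

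Named genes were landmarks, the called TSSs with the largest differences, the called list members with the smallest p and, for the interaction, the 4 smallest p in each direction, leaving out predicted, Rik, small RNA and receptor cluster names. Genes that met the rule but are not named are not reported here. Mirc35hg and genes outside that rule, such as those called only in the NPC fit or those with the highest SUZ12 of their list, were named after their values were seen. The 25 gene lists, the groups and the tests were chosen with earlier results of these data known. Alternatives were DESeq2 1.42.0, other scaling, filters, windows and groups in the fit, a replicate block and each library left out. The fit was tested on simulated data: of 200 changed TSSs among 23432, 79 calls were true and 3 false.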

Additional observations from a re-analysis of the deposited data

Results flagged for a closer look

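The difference between JARID2 and SUZ12 was not the same in NPC as in ESC at 227 TSSs, by edgeR's test of the interaction at an adjusted p below 0.05. By the rule for named genes, the 4 smallest p-values in each direction are given. The log2 interaction was 3.04 at Pcdha9, 2.64 at Cxxc4, 2.36 at Spred1 and 3.27 at Epha7. SUZ12 in ESC was 174 and 155 CPM at Pcdha9 and 119 and 83.3 CPM at Cxxc4, and 21.5 and 15.6 CPM and 32.2 and 26.8 CPM in NPC. At neither was JARID2 above IgG in both NPC libraries. It was -2.37 at Tmprss7, -2.85 at Sprr2f, -1.94 at Il21r and -1.72 at Krt80, where SUZ12 was below IgG in both ESC libraries. None of these 8 TSSs was a PRC2 target, and no TSS was called without JARID2 ESC library 2.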

How the results depend on the processing

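Most counts of called TSSs depended on which libraries shared the fit and on the scaling. The JARID2 excess over PRC2 targets was 24.2% of the SUZ12 excess as a mean of both libraries. It lay between 20.5% and 27.9% under the 6 alternatives run on it, chosen after seeing the data. The ends of that range are the values of the single JARID2 libraries, so they restate the spread of that pair. Total counts was the only other scaling among the 6. Factors from PRC2 targets, which set the subunits equal there, were not applied to the excess. Its dependence on the scaling can therefore not be compared with that of the counts. For JARID2 against SUZ12 in NPC, 5 TSSs were called, and 9 with the JARID2 libraries apart, 371 with only the NPC libraries (370 with JARID2 summed), 291 without MTF2, 0 with all 22 libraries, 0 with DESeq2 and 3 in non-overlapping windows. With factors from PRC2 targets the count was 50, or 126 with the JARID2 libraries apart and 5529 with only NPC libraries, and leaving out 1 SUZ12 or JARID2 library of either cell type gave 0 to 4. JARID2 above IgG (0) became 29 with only NPC libraries, 59 with JARID2 summed there, 15 without MTF2, and with target factors 12 in the fit of 8 groups, 11 with JARID2 apart and 10 with only NPC libraries. TSSs above IgG for both (0) became 27, 57, 14, 12, 11 and 10 in the same order. SUZ12 above IgG (14) became 33 with JARID2 apart, 459 and 450 with only NPC libraries, 411 without MTF2, 0 with all 22 libraries, 112 with DESeq2, 106 with total counts, 149 at a minimum count of 30, 8 in non-overlapping windows, 168 with IgG of both cell types, 143, 154 and 156 with target factors, and 4 to 14 without 1 NPC library of SUZ12 or JARID2. The interaction (227) became 426 with JARID2 apart, 0 with all 22 libraries, 0 with DESeq2, 144 with total counts, 61 with target factors, 147 without a filter, 150 in non-overlapping windows, 1014 without MTF2, and 0 to 172 without 1 library. Why all 22 libraries, DESeq2 or total counts differ was not tested.

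The replicate numbers of JARID2 and SUZ12 give only 2 pairs, and the differences between library 1 and 2 of each antibody had a correlation of -0.01 across 23521 TSSs, so the libraries share only a number. With a replicate block and the JARID2 libraries apart, 9 TSSs were called for JARID2 against SUZ12, 9 for SUZ12 above IgG and 314 for the interaction. 

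Signs turned for 6 named TSSs, none of them called. With PRC2 target factors (in the fit of 8 groups, with JARID2 apart and in NPC alone) the log2 differences were 0.0523, 0.0790 and 0.0664 for Nkx2-2, 0.30, 0.30 and 0.31 for T, 0.0148, 0.0223 and 0.0272 for Pou5f1, 0.20, 0.19 and 0.20 for Nanog, 0.31, 0.32 and 0.32 for Cdkn2a, and 0.36, 0.38 and 0.38 for Actb. Without 1 NPC library, T ran from -0.92 to 0.0190 (the latter without JARID2 library 2), Nanog from -0.86 to 0.00497 (without SUZ12 library 1) and Actb from -0.58 to 0.22 (without SUZ12 library 2). Of the other alternatives for named TSSs, 379 kept sign and side of the threshold, 81 lost the call and 29 gained one. Counts at a TSS were low. Data of these depths were simulated with the spread of the 8-group fit and tested in that fit. It recovered 10% of TSSs changed by a log2 of 1 and 69% of those changed by 2. Smaller differences are thus mostly not detectable in the 8-group fit. The NPC fit, in which the spread was smaller, was not simulated.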
